A study of Mus musculus with 6 samples.

Results

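The 100 genes described here stood highest in mouse embryonic stem cells (ESC) relative to every induced pluripotent stem cell (iPSC) line of the series. They were chosen from the 19330 genes of the deposited table by ranking the ratio of the ESC level plus 0.5 to the highest level of the 4 iPSC lines plus 0.5, in RPKM (read counts divided by gene length and by the library's assigned reads), and taking the top 100. The levels in ESC and in the iPSC lines therefore chose the members, and the gap between them is given below as a description without a test. RNA sequencing was done on 6 libraries. These were 1 ESC library titled B6 with the source name B6/blu, 1 library of mouse embryonic fibroblasts (MEF), 2 control iPSC lines numbered 3 and 7, labelled normal iPSC, and 2 iPSC lines numbered 5 and 13, labelled as induced with palmitoylcarnitine (PC iPSC). Palmitoylcarnitine is the carnitine ester in which palmitate is carried into mitochondria. Per the labels' protocols ESC and iPSC grew in serum medium with leukemia inhibitory factor on mitomycin C-treated MEF feeders, while MEF grew in serum medium. The sources used here give no strain, sex or passage of the cells, no reprogramming factors and no dose of palmitoylcarnitine. ESC and MEF had 1 library each, and each iPSC library was a different numbered line.

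ESC are derived from the inner cell mass of the blastocyst, and iPSC are made by forcing somatic cells such as MEF back to a similar state with a few transcription factors. In culture with leukemia inhibitory factor and serum, mouse pluripotent colonies have an epithelial character and contain cells that differ in their readiness to differentiate. Genes of lineage signalling (Nodal and its inhibitors, Notch ligands, Hedgehog targets) vary among such cells, and oxygen supply and glucose use set the level of many glycolytic genes through hypoxia-inducible factors.

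Assigned reads came to between 26.51 M and 27.99 M per library, so depth was nearly even. The 8 pluripotency markers Pou5f1, Sox2, Nanog, Zfp42, Esrrb, Tdgf1, Dppa4 and Dppa5a stood between 47.9 and 3147 RPKM in ESC and between 56.7 and 3053 RPKM in the iPSC lines. The MEF library held Pou5f1 at 158 and Sox2 at 88.2 RPKM, although Nanog was at 0.0482 and Zfp42, Esrrb, Tdgf1, Dppa4 and Dppa5a were at 0, so its label and its content did not match in full. No second MEF library allows a value without it. Fibroblast genes were read in all ESC and iPSC libraries, and the summed level of a 20-gene fibroblast list was lowest in ESC at 1667 RPKM, against 2067 to 4107 in the iPSC lines and 10635 in MEF. None of the 20 had 0 reads in ESC, and 7 of the 20 were called higher in iPSC than in ESC, where 4.71% of all tested genes were (edgeR's quasi-likelihood test with Benjamini-Hochberg adjustment). In libraries of bulk RNA, fewer cells of a type and less RNA per cell cannot be told apart.

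The members had ratios from 2.77 to 21.5, and their level in ESC was 2.92 to 22.97 times that of the highest iPSC line, with a median of 4.07. Their ESC level ran from 1.31 to 459.6 RPKM around a median of 7.54, and 44 members reached 10 RPKM there. Weak describes the ratio more than the level, since 33 members stayed under 1 RPKM in every iPSC line, 54 peaked between 1 and 10, and 13 reached 10 RPKM or more in at least 1 line. Klf2, a Krüppel-like transcription factor of naive pluripotency, stood at 407 RPKM in ESC, 106 and 124 in control iPSC 3 and 7, 135 and 112 in PC iPSC 5 and 13, and 5.61 in MEF. It was thus abundant in all 4 iPSC lines and still 3.004 times higher in ESC than in the highest of them. No member lacked reads in all 4 iPSC lines, and 2 members, Cd52 and 1810063I02Rik, had no more than 2 reads in any of them. By type, 94 members were protein-coding and 6 were long noncoding RNAs. Just inside the threshold stood Ap1m2, Cpne9, Parp14, Camk2n1 and Lama3 with ratios from 2.796 down to 2.77. Just outside stood Tbc1d9, Fgf17, Plxdc1, Insm1 and Prr15l with ratios from 2.76 to 2.73, so the edge of the set is not a gap.

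**Figure D1:**
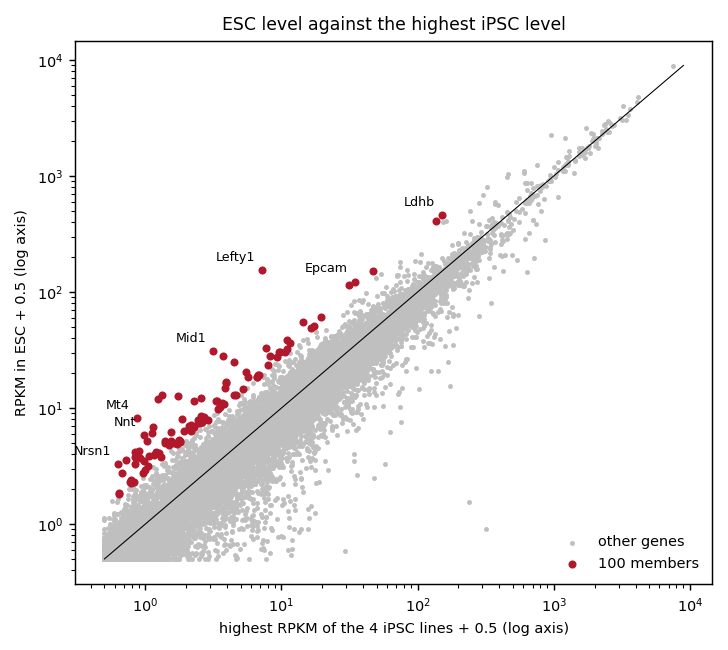
ESC level of every gene of the table against its highest level among the 4 iPSC lines, both in RPKM plus 0.5 on log axes, with equal levels on the line. The 100 members (red) form the upper edge of the cloud from 1.31 to 459.6 RPKM in ESC, and Lefty1 stands farthest from the line.

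Of 3 genes given as markers of the set, Nrsn1 was a member at rank 12, while Serpinb5 and Tmprss11f ranked 401 and 1124. Serpinb5, a serpin of epithelial cells, had 29 reads (0.405 RPKM) in ESC, 0 in all 4 iPSC lines and 123 in MEF. Tmprss11f, a transmembrane serine protease, had 25 reads (0.209 RPKM) in ESC and 0 in every other library. Both were read in ESC only among the pluripotent lines, and the constant of 0.5 RPKM kept genes of such low level out of the top 100. Where no read was seen, counting error alone leaves room for as many as 3 reads in that library.

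**Figure D2:**
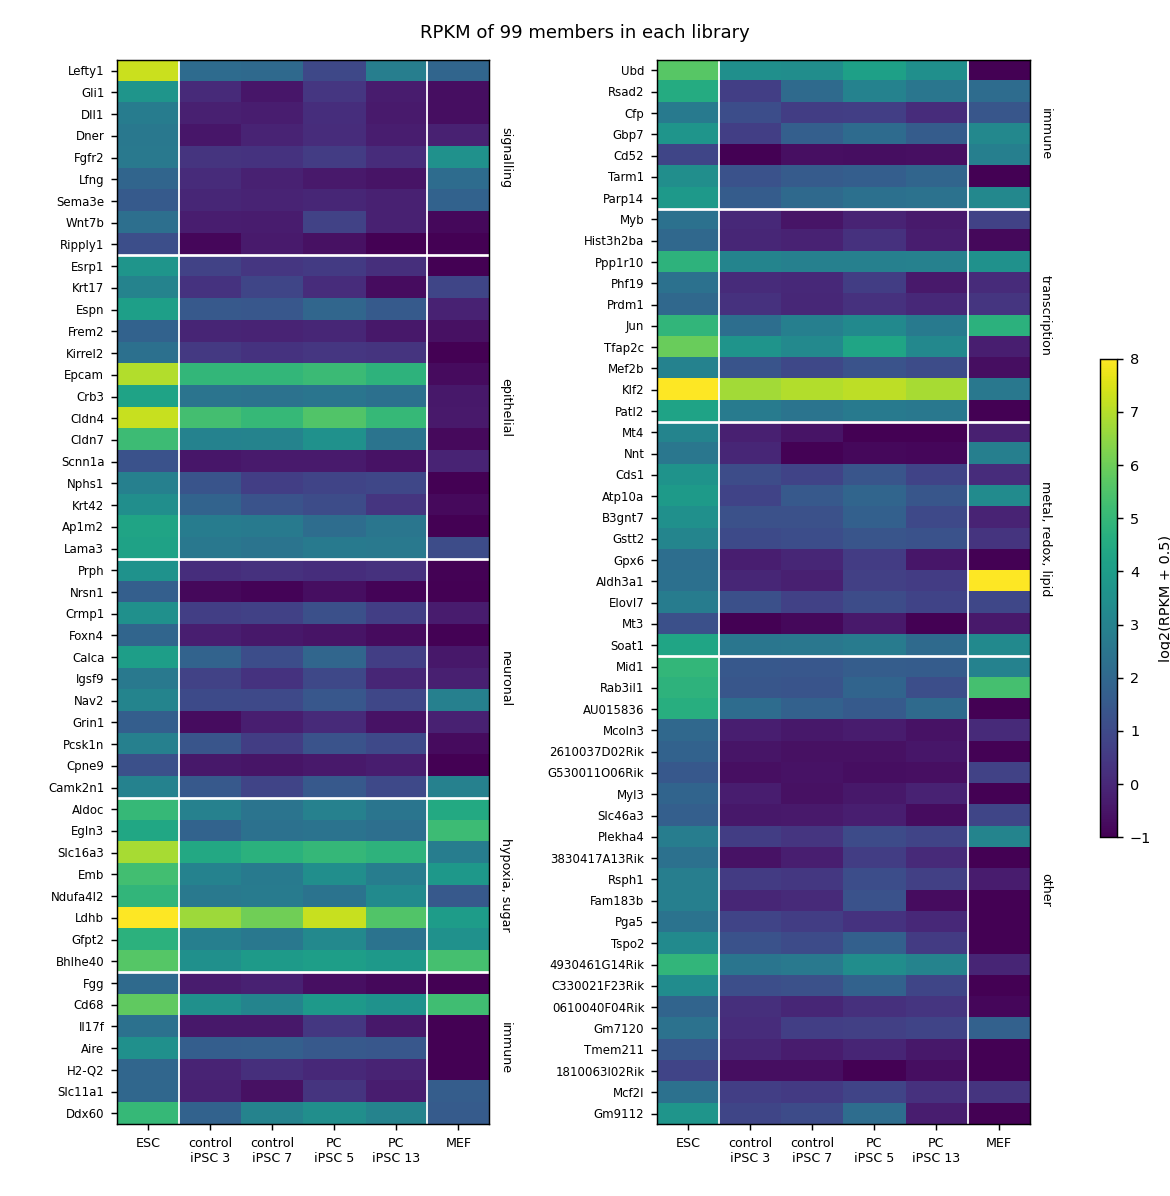
log2(RPKM + 0.5) of 99 members (lines) in the 6 libraries (columns), grouped by hand by known function and ordered by rank within each group; values above 8 are drawn at 8. ESC is brighter than the 4 iPSC columns in every line, by the rule, and MEF is dark for most epithelial and neuronal members and bright for Aldh3a1.

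Lefty1, a secreted inhibitor of Nodal signalling (chr1:180935022-180938401 on GRCm38.p6), led the set. It stood at 155 RPKM in ESC, 3.95 and 3.74 in control iPSC 3 and 7, 1.45 and 6.74 in PC iPSC 5 and 13, and 3.304 in MEF. Its ESC level was 22.97 times the highest iPSC level, the 4 iPSC lines averaged 3.97 ± 2.17 RPKM (SD, n = 4), and PC iPSC 5 and 13 were the lowest and the highest of them, 4.66 times apart. Lefty2 and Nodal did not share the gap. Lefty2, the neighbouring inhibitor of the same kind, stood at 56.4 RPKM in ESC, 27.97 and 15.8 in control iPSC 3 and 7, 11.5 and 73.7 in PC iPSC 5 and 13, and 0.0282 in MEF, so that PC iPSC 13 lay above ESC. Nodal itself, the ligand, stood at 29.2 RPKM in ESC, 47.2 and 39.7 in control iPSC 3 and 7, 28.9 and 41.6 in PC iPSC 5 and 13, and 0 in MEF, with 3 of the 4 iPSC lines above ESC. Among the 16 other tested genes of a Nodal pathway list, 1 was called lower in iPSC than in ESC, where 5.71% of all tested genes were, and 1 higher, with a median log2 difference of -0.01. The higher gene was Pcsk6, a convertase that cleaves Nodal precursors, at 14.8 RPKM in ESC and 26.6 to 29.5 in the 4 iPSC lines.

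Hedgehog and Notch genes followed among the signalling members. Gli1, a zinc-finger factor that is itself switched on by Hedgehog signalling, stood at 12.3 RPKM in ESC, 0.544 and 0.227 in control iPSC 3 and 7, 0.828 and 0.312 in PC iPSC 5 and 13, and 0.127 in MEF. Ptch1, the Hedgehog receptor and also a target of the pathway, was outside the set at 24.1 RPKM in ESC and 7.98 to 10.99 in the 4 iPSC lines, and was called lower in iPSC with a log2 difference of -1.38 ± 0.18 (SE). It was the only call among the 12 other tested Hedgehog genes, whose median was -0.09. Of all tested genes, 5.71% were called lower and 4.71% higher in iPSC. The Notch ligand Dll1 stood at 6.31 RPKM in ESC, 0.368 and 0.329 in control iPSC 3 and 7, 0.639 and 0.278 in PC iPSC 5 and 13, and 0.135 in MEF. Dner, a Notch-binding transmembrane protein of neurons, stood at 5.58 RPKM in ESC, 0.237 and 0.422 in control iPSC 3 and 7, 0.610 and 0.332 in PC iPSC 5 and 13, and 0.390 in MEF. Lfng, a glycosyltransferase that modifies Notch receptors, was at 3.36 RPKM in ESC and 0.192 to 0.567 in the 4 iPSC lines and slightly higher in MEF (4.07) than in ESC. Of the 19 other tested Notch genes, 1 was called lower in iPSC (the receptor Notch1, 19.1 RPKM in ESC and 9.04 to 12.1 in the 4 iPSC lines) and 2 were called higher, with a median of -0.45. These 2 were the Notch target Hes1, at 11.7 RPKM in ESC and 19.1 to 30.0 in the 4 iPSC lines, and the protease Adam10, at 10.5 RPKM in ESC and 16.6 to 19.5 in the 4 iPSC lines. The Hedgehog and Notch lists were written after the members' values had been seen.

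Fgfr2, Wnt7b, Sema3e and Ripply1 completed the 9 signalling members. Fgfr2, a receptor of fibroblast growth factors, stood at 5.72 RPKM in ESC, 0.783 and 0.751 in control iPSC 3 and 7, 1.03 and 0.592 in PC iPSC 5 and 13, and 11.3 in MEF, so MEF was above ESC. Wnt7b, a secreted Wnt ligand, was at 4.43 RPKM in ESC, 0.320 and 0.301 in control iPSC 3 and 7, 1.203 and 0.388 in PC iPSC 5 and 13, and 0.0712 in MEF. Its level in PC iPSC 5 was well above the other 3 lines, which stood close together. The 9 members had a median ESC level of 5.58 RPKM, and PC iPSC 5 was the highest iPSC line for 6 of them.

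Epithelial genes made up 14 members. They cover the adhesion molecule Epcam, the tight junction proteins Cldn4 and Cldn7, the polarity protein Crb3, the splicing regulator Esrp1, the keratins Krt17 and Krt42, the adaptor Ap1m2 and the laminin chain Lama3, besides Espn, Frem2, Kirrel2, Nphs1 and Scnn1a. Epcam stood at 123 RPKM in ESC, 30.98 and 30.6 in control iPSC 3 and 7, 34.4 and 28.01 in PC iPSC 5 and 13, and 0.104 in MEF, and its 4 iPSC values averaged 31.01 ± 2.63 RPKM (SD, n = 4). Cldn4 stood at 150.0 RPKM in ESC, 39.3 and 32.2 in control iPSC 3 and 7, 46.5 and 31.9 in PC iPSC 5 and 13, and 0.274 in MEF. Esrp1, which sets the epithelial form of spliced transcripts, had the widest gap of the group at 12.3 RPKM in ESC, 1.23 and 0.827 in control iPSC 3 and 7, 0.936 and 0.668 in PC iPSC 5 and 13, and 0 in MEF. In all 3 genes the 4 iPSC lines stood far closer to each other than to ESC, and MEF had 0 to 0.274 RPKM. Among the 25 other tested genes of a simple-epithelium list that holds 5 of the members, 7 were called lower and 0 higher in iPSC. Of all tested genes, 5.71% were called lower and 4.71% higher. The median log2 difference of the 25 was -1.19, against 0.03 for all tested genes. These genes were read in the same ESC and iPSC libraries that chose the members, so they are no independent check. The 7 were Krt19, Cldn3, Cldn6, Grhl2, St14, Pkp3 and Cdcp1. St14, a membrane serine protease of epithelia, was at 52.4 RPKM in ESC and 19.3 to 28.96 in the 4 iPSC lines, and the grainyhead factor Grhl2 was at 7.54 RPKM in ESC and 3.47 to 4.504 in the 4 iPSC lines. Espn, an actin-bundling protein, was at 16.4 RPKM in ESC and 2.23 to 3.43 in the 4 iPSC lines. By the deposited gene ontology terms, tight junction was attached to 4.08% of the annotated members (4 genes) and to 0.594% of all annotated genes, and cell junction to 10.2% and 3.66%. Other terms differed too, such as plasma membrane (27.6% and 17.3%), neuronal cell body (7.14% and 2.59%) and, in the other direction, nucleus (23.5% and 29.9%). No term was tested.

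The squamous keratin Krt17 varied more. It stood at 7.62 RPKM in ESC, 0.733 and 1.35 in control iPSC 3 and 7, 0.612 and 0.120 in PC iPSC 5 and 13, and 1.33 in MEF, so that control iPSC 7 was highest and PC iPSC 13 lowest. Its neighbour Krt42 stood at 10.5 RPKM in ESC, 3.18 and 1.98 in control iPSC 3 and 7, 1.63 and 0.809 in PC iPSC 5 and 13, and 0.0924 in MEF. In both keratins the iPSC lines spread more than in Epcam, and for Krt42 both PC lines lay below both control lines. Of the 21 other tested genes of a squamous list, 4 were called lower in iPSC: Sfn, Klk7 and the 2 low genes Serpinb5 and Tmprss11f, against 5.71% of all tested genes. The last 2 had been given as markers of the set. The median of the 21 was 0.00 and 10 were negative.

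Of the 12 neuronal and neuroendocrine members, Prph (chr15:99053579-99058978), which encodes the intermediate filament peripherin of peripheral neurons, was the highest ranked. It stood at 11.5 RPKM in ESC, 0.641 and 0.728 in control iPSC 3 and 7, 0.638 and 0.711 in PC iPSC 5 and 13, and 0.0192 in MEF. The 4 iPSC lines lay within 1.14 times of each other. Nrsn1, a vesicle membrane protein of neurons (chr13:25252039-25269996), was at 2.78 RPKM in ESC, 0.0672 and 0.0350 in control iPSC 3 and 7, 0.134 and 0.0342 in PC iPSC 5 and 13, and 0 in MEF. These were 167 reads in ESC and 4, 2, 8 and 2 in iPSC 3, 7, 5 and 13, so the iPSC values are near the floor of 3 reads. Its promoter is shown because it is dense in CpG, the dinucleotide at which DNA is methylated. The window runs from 250 bases before to 50 bases after the RefSeq start (chr13:25269947-25270246, minus strand, GRCm38.p6), with the 26 CpG in capitals.
Nrsn1: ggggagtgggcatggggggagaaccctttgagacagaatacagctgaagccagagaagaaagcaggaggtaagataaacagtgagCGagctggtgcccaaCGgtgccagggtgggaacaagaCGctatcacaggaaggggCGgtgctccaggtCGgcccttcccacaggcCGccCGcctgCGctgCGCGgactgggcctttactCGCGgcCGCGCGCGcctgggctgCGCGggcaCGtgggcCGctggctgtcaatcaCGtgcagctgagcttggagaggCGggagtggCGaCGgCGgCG
Crmp1, a protein of axon guidance, was at 10.98 RPKM in ESC, 1.11 and 1.16 in control iPSC 3 and 7, 1.79 and 1.09 in PC iPSC 5 and 13, and 0.311 in MEF, with PC iPSC 5 apart from the other 3 lines. Calca, the calcitonin gene, was at 16.1 RPKM in ESC, 3.12 and 1.66 in control iPSC 3 and 7, 3.38 and 1.09 in PC iPSC 5 and 13, and 0.239 in MEF. The forkhead factor Foxn4 was at 3.303 RPKM in ESC and 0.0992 to 0.341 in the 4 iPSC lines. Of the 18 other tested neuronal vesicle and neuronal genes, 2 were called lower in iPSC, where 5.71% of all tested genes were, and 0 higher. Tubb3, the first, was at 31.1 RPKM in ESC and 10.8 to 17.6 in the 4 iPSC lines. Map2, the second, was at 2.79 RPKM in ESC and 0.634 to 0.883 in the 4 iPSC lines.

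Hypoxia and sugar-use genes made up 8 members and were the most abundant, with a median of 35.3 RPKM in ESC. Ldhb, a subunit of lactate dehydrogenase, had the highest ESC level of all members at 459.6 RPKM in ESC, 102 and 66.2 in control iPSC 3 and 7, 150.3 and 46.5 in PC iPSC 5 and 13, and 15.2 in MEF. Its iPSC lines ranged 3.23-fold, with PC iPSC 5 highest and PC iPSC 13 lowest. Slc16a3, the lactate exporter MCT4, stood at 114 RPKM in ESC, 21.05 and 26.3 in control iPSC 3 and 7, 31.1 and 27.7 in PC iPSC 5 and 13, and 6.61 in MEF. Egln3, an oxygen-sensing hydroxylase that is itself induced by hypoxia, stood at 20.1 RPKM in ESC, 3.15 and 4.68 in control iPSC 3 and 7, 4.94 and 4.35 in PC iPSC 5 and 13, and 35.7 in MEF, so MEF lay above ESC. Aldoc, a glycolytic aldolase, was at 32.3 RPKM in ESC and 5.06 to 7.25 in the 4 iPSC lines. All of these are known in glucose or lactate handling or its control by oxygen. Ndufa4l2, a mitochondrial protein induced in hypoxia, was at 29.9 RPKM in ESC and 4.83 to 9.299 in the 4 iPSC lines. The repressor Bhlhe40 was at 48.6 RPKM in ESC and 10.9 to 16 in the 4 iPSC lines. Emb, the partner of monocarboxylate transporters, was at 38.2 RPKM in ESC and 6.03 to 10.5 in the 4 iPSC lines, and Gfpt2, an enzyme of hexosamine synthesis, was at 27.3 RPKM in ESC and 4.82 to 8.84 in the 4 iPSC lines. Within each of these genes the 4 iPSC lines stayed below ESC by at least 3.04-fold, as the rule requires of members.

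Other genes of hypoxia and glycolysis were also lower in iPSC. They were read in the same ESC and iPSC libraries that chose the members, so they are no independent check. Of the 37 other tested genes in a hypoxia and glycolysis list of 44, written after the members' values were seen, 17 were called lower in iPSC than in ESC (5.71% of all tested genes were), 0 were called higher, and 32 had a negative difference. Their median was -0.64 on the log2 scale. Slc2a1, the glucose transporter GLUT1, was at 182 RPKM in ESC and 48.2 to 73.2 in the 4 iPSC lines. Pgk1, a glycolytic kinase, was at 972 RPKM in ESC and 382 to 455 in the 4 iPSC lines, and Aldoa at 2258 RPKM in ESC and 910.2 to 959 in the 4 iPSC lines. Bnip3, a mitochondrial target of hypoxia-inducible factor, was at 132 RPKM in ESC and 38.4 to 49.2 in the 4 iPSC lines. In these 4 genes every iPSC line lay below ESC, and the control and PC lines overlapped. The summed level of the 44 genes, 7 of them members, was 14731 RPKM in ESC and 7829.9 to 8312 in the iPSC lines.

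The interferon, antigen-presentation and immune-cell group, set by hand, held 14 members, among them the fibrinogen chain Fgg. Rsad2, an antiviral enzyme induced by interferon, stood at 22.8 RPKM in ESC, 1.08 and 3.85 in control iPSC 3 and 7, 7.43 and 5.302 in PC iPSC 5 and 13, and 3.99 in MEF. Ddx60, an antiviral helicase, stood at 31.99 RPKM in ESC, 3.02 and 7.58 in control iPSC 3 and 7, 10.5 and 7.57 in PC iPSC 5 and 13, and 2.49 in MEF. Gbp7, a guanylate-binding protein, stood at 12.4 RPKM in ESC, 1.11 and 2.81 in control iPSC 3 and 7, 3.97 and 2.59 in PC iPSC 5 and 13, and 8.62 in MEF. In all 3 genes control iPSC 3 was the lowest line and PC iPSC 5 the highest. Their promoters are shown because they carry the core of the interferon-response element, which is GAAA, any 2 bases and GAAA again, in capitals on either strand (it reads as TTTC on the other). The motif was found in 4 of the 78 members with a promoter in the RefSeq table (5.1%) and in 3.0% of 15092 promoters of table genes. The fourth was Cldn7, an epithelial member. The windows are Rsad2 (chr12:26456403-26456702, minus strand), Ddx60 (chr8:61927837-61928136, plus strand) and Gbp7 (chr3:142530086-142530385, plus strand), all on GRCm38.p6.
Rsad2: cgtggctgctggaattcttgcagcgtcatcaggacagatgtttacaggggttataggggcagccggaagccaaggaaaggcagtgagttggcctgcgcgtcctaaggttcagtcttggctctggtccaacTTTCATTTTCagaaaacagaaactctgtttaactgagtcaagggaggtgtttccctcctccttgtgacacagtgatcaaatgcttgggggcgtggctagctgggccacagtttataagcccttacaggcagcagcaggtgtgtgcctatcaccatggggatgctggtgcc
Ddx60: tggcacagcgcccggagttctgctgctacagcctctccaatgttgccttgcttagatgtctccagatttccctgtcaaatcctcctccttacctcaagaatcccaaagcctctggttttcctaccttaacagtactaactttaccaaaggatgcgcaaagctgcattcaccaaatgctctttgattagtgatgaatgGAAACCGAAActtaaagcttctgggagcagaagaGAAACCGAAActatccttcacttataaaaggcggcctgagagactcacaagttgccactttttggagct
Gbp7: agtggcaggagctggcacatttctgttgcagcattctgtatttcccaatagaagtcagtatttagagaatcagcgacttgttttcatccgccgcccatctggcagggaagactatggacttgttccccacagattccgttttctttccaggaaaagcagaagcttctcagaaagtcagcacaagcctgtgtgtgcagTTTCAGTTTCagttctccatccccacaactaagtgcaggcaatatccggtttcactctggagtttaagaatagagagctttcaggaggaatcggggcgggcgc
A match is a description of letters and not a binding site.

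Ubd, an interferon-inducible ubiquitin-like protein, was at 50.2 RPKM in ESC, 10.7 and 10.2 in control iPSC 3 and 7, 16.8 and 10.6 in PC iPSC 5 and 13, and 0 in MEF, again with PC iPSC 5 apart. H2-Q2, a class Ib histocompatibility gene, was at 3.42 RPKM in ESC and 0.428 to 0.652 in the 4 iPSC lines, and it has near-identical neighbours between which reads are uncertain. Parp14, an ADP-ribosyltransferase, was at 13.98 RPKM in ESC and 2.58 to 4.72 in the 4 iPSC lines. Aire, the factor that drives self-antigens in the thymus, was at 10.9 RPKM in ESC and 2.202 to 2.82 in the 4 iPSC lines. Of the 30 other tested genes of an interferon list, also written after the values were seen, 2 were called lower and 0 higher. The 2 were Parp9 and the RNA sensor Ddx58, a share near the 5.71% of all tested genes called lower. Of these 30, 20 had a negative difference, and their median was -0.47. The summed level of the 36 genes, 6 of them members, was 2320.3 RPKM in ESC, 1436 in control iPSC 3 and 2665 to 2948 in the other 3 lines.

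Cd68, a lysosomal glycoprotein that is abundant in macrophages, stood at 55.2 RPKM in ESC, 11.04 and 7.77 in control iPSC 3 and 7, 13.8 and 11.6 in PC iPSC 5 and 13, and 37.2 in MEF. Cd52, Slc11a1, Cfp and Tarm1 are further members known from myeloid or lymphoid cells. Cd52 was at 1.35 RPKM in ESC, 0 and 0.142 in control iPSC 3 and 7, 0.136 and 0.139 in PC iPSC 5 and 13, and 6.86 in MEF, from 20 reads in ESC and 0 or 2 in each iPSC line. The summed level of 8 macrophage markers was 70.1 RPKM in ESC, 13.4 to 19.2 in iPSC and 741 in MEF, and most of the ESC sum was Cd68. All 7 markers besides Cd68 had a lower fitted level in iPSC than in ESC, with a median log2 difference of -1.40, and 1 of the 7, the lysozyme gene Lyz2, was called. Lyz2 was at 11.5 RPKM in ESC and 3.80 to 6.27 in iPSC. Ptprc was at 0.0643 RPKM in ESC and 0 to 0.0325 in the 4 iPSC lines. Adgre1 was at 0.165 RPKM in ESC and 0.0454 to 0.134 in the 4 iPSC lines, and Csf1r at 0.379 RPKM in ESC and 0.146 to 0.410 in the 4 iPSC lines. These 3 are defining macrophage genes, and in MEF they stood at 3.52, 17.2 and 23.6 RPKM. A wider list of macrophage surface and lysosomal genes was written after the values were seen. Of its 15 other tested genes, 3 were called lower in iPSC and 0 higher, with a median of -1.03. Of all tested genes, 5.71% were called lower. The macrophage lists were read in the libraries that chose the members. Its summed level was 112 RPKM in ESC and 39.1 to 54.3 in iPSC. That sum includes 5 members, among them Cd68 at 55.2 RPKM in ESC. The rule chose these members for a high ESC level relative to iPSC, so the gap in the sum follows in part from the rule. The 3 called genes were Lyz2, C1qc and Mpeg1. The complement gene C1qc was at 1.95 RPKM in ESC and 0.346 to 0.781 in the 4 iPSC lines. Mpeg1 was at 1.75 RPKM in ESC and 0.416 to 0.747 in the 4 iPSC lines. None of the 8 markers had 0 reads in ESC. The part of such cells in these members was not tested.

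Il17f, a cytokine of T cells, stood at 4.68 RPKM in ESC, 0.246 and 0.256 in control iPSC 3 and 7, 0.888 and 0.250 in PC iPSC 5 and 13, and 0 in MEF, with PC iPSC 5 apart from the other 3 lines. Fgg, the gamma chain of fibrinogen, stood at 3.78 RPKM in ESC, 0.306 and 0.393 in control iPSC 3 and 7, 0.141 and 0.0719 in PC iPSC 5 and 13, and 0 in MEF, and both PC lines were below both control lines. The promoter of Il17f (chr1:20784221-20784520, minus strand, GRCm38.p6) is shown against that of Nrsn1 because it is poor in CpG, with its 4 CpG in capitals.
Il17f: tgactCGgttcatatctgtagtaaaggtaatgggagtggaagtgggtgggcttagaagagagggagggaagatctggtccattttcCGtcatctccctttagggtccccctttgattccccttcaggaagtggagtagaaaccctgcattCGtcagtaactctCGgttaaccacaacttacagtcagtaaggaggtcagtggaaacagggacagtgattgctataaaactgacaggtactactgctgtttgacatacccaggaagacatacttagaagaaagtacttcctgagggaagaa

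All 4 metallothionein genes, which encode zinc- and copper-binding proteins, were read in ESC. The rule chose 2 of them as members, and of the other 2, 1 was called lower in iPSC (5.71% of all tested genes were). Mt4, the form of squamous epithelia (chr8:94137204-94139031), stood at 7.76 RPKM in ESC, 0.370 and 0.192 in control iPSC 3 and 7, 0 and 0 in PC iPSC 5 and 13, and 0.365 in MEF, from 85 reads in ESC and none in either PC line. Mt3, the form of the brain, began 15.4 kb from it and stood at 1.797 RPKM in ESC, 0 and 0.0701 in control iPSC 3 and 7, 0.268 and 0 in PC iPSC 5 and 13, and 0.266 in MEF, from only 27 reads in ESC. The widely expressed Mt1, outside the set, was at 409 RPKM in ESC, 162 and 91.2 in control iPSC 3 and 7, 136 and 77.9 in PC iPSC 5 and 13, and 82.1 in MEF, and was the gene called. Mt2 was at 684 RPKM in ESC, 242 and 127 in control iPSC 3 and 7, 300.2 and 81 in PC iPSC 5 and 13, and 48.4 in MEF and did not pass the test. Control iPSC 7 and PC iPSC 13 were the lower lines for both of these, so the family varied between lines of the same group. The window at the start of Mt4 (chr8:94136954-94137253, plus strand, GRCm38.p6), shown because Mt4 had the second widest fold of all members, held 5 CpG, in capitals.
Mt4: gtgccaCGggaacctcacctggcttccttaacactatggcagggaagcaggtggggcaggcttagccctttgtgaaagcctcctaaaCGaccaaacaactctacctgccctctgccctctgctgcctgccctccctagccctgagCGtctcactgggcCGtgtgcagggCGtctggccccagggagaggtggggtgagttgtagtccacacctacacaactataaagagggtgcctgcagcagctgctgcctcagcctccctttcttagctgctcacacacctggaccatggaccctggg
Of the other metal, redox and lipid members, Cds1, a phospholipid enzyme, was at 11.7 RPKM in ESC and 1.24 to 2.08 in the 4 iPSC lines. Atp10a, a phospholipid flippase, was at 14.5 RPKM in ESC and 1.25 to 3.34 in the 4 iPSC lines, with control iPSC 3 lowest.

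Nnt, the mitochondrial nicotinamide nucleotide transhydrogenase (chr13:119335527-119409257), is known for an internal deletion in the C57BL/6J substrain of mice. It stood at 5.39 RPKM in ESC, 0.473 and 0.0141 in control iPSC 3 and 7, 0.0674 and 0.0550 in PC iPSC 5 and 13, and 6.92 in MEF. The deposited coverage column gave 55.1% of the gene's length covered by 807 reads in ESC, and 91.6% covered by 1037 reads in MEF. Control iPSC 3 had 70 reads over 34.8% of the length, and the other 3 lines had 2, 10 and 8 reads. Among 2481 genes with 500 to 2000 reads in both ESC and MEF, 4 had a larger MEF minus ESC difference in coverage than the 36.5 points of Nnt, and the median difference was 0.13 points. Of the members, Aldoc had a gap of similar size, with 61.2% of its length covered by 2458 reads in ESC and 94.9% by 1665 reads in MEF, and Lama3 had 69.9% in ESC and 93.3% in MEF. For Nnt, control iPSC 3 stood apart from the 3 other lines. The part of that deletion in the level and coverage of Nnt was not tested.

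Transcription and chromatin genes made up 10 members. Tfap2c, an AP-2 factor of trophoblast and germ cells, was at 60.7 RPKM in ESC, 12.2 and 8.98 in control iPSC 3 and 7, 19.1 and 8.75 in PC iPSC 5 and 13, and 0.351 in MEF. Myb, a factor of blood progenitors, was at 4.68 RPKM in ESC and 0.210 to 0.527 in the 4 iPSC lines. Jun, an AP-1 factor, was at 30.1 RPKM in ESC and 4.22 to 9.04 in the 4 iPSC lines, with control iPSC 3 lowest. Prdm1, a repressor in germ cells and lymphocytes, was at 3.58 RPKM in ESC and 0.491 to 0.726 in the 4 iPSC lines. Phf19, a Polycomb-associated protein, was at 4.63 RPKM in ESC and 0.266 to 1.04 in the 4 iPSC lines, and Ppp1r10, a phosphatase subunit, at 27.6 RPKM in ESC and 7.08 to 7.78 in the 4 iPSC lines. Klf2 was the only member among 19 tested naive pluripotency genes. Of the other 18, 2 were called lower in iPSC (Fgf4 and Stat3) and 4 were called higher (Klf4, Zfp42, Tbx3 and Tcl1). Of all tested genes, 5.71% were called lower and 4.71% higher. Klf4 stood at 21.4 RPKM in ESC and 70.9 to 96.5 in the 4 iPSC lines and Zfp42 at 67.2 RPKM in ESC and 143 to 171 in the 4 iPSC lines, opposite in direction to Klf2.

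Among the 22 members with other or little-known roles, Mid1, a microtubule-binding ubiquitin ligase on the X chromosome (chrX:169685199-169990798), was the second of all members by ratio. It stood at 30.7 RPKM in ESC, 2.25 and 2.24 in control iPSC 3 and 7, 2.66 and 2.61 in PC iPSC 5 and 13, and 7.44 in MEF, and its 4 iPSC lines were nearly equal at 2.44 ± 0.223 RPKM (SD, n = 4). The noncoding member G530011O06Rik lies within Mid1 and stood at 2.27 RPKM in ESC and 0.136 to 0.174 in the 4 iPSC lines. Since the use of strand is not given, reads of these overlapping genes cannot be told apart. Rab3il1, an exchange factor for Rab proteins, was at 27.7 RPKM in ESC, 2.17 and 2.03 in control iPSC 3 and 7, 3.23 and 1.76 in PC iPSC 5 and 13, and 40.2 in MEF. AU015836 was at 24.7 RPKM in ESC, 4.01 and 2.998 in control iPSC 3 and 7, 2.403 and 3.84 in PC iPSC 5 and 13, and 0 in MEF, and the cation channel Mcoln3 was at 3.66 RPKM in ESC and 0.172 to 0.338 in the 4 iPSC lines. The X chromosome held 8 members (8.0%), against 3.9% of all placed genes. Xist, the RNA of the inactive X, was at 2.54 RPKM in ESC and 4.17 to 6.95 in the 4 iPSC lines, and the summed level of 8 Y-linked genes was 14.7 RPKM in ESC, 41.4 to 71.2 in iPSC and 79.4 in MEF. The part of the sex of the cells in the X-linked members was not tested.

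The rule did not use the MEF library, but it used the iPSC levels. Fibroblast genes were read in every iPSC library, and their summed level was higher there than in ESC. Shares in MEF are therefore not independent of the rule. In MEF 39 members reached 1 RPKM, a smaller share than the 87.7% among the 11992 genes at 1 RPKM or more in ESC. No MEF read was seen for 25 members, against 2.89% of those genes. Most members were thus under 1 RPKM in MEF, as a description of the set and not a test. In MEF 12 members reached 10 RPKM, as did 6285 of the 11992 genes. Above their ESC level stood 9 members, against 43.1% of the 11992 genes. These 9 were Aldh3a1, Rab3il1, Egln3, Fgfr2, Plekha4, Nnt, Cd52, Lfng and Sema3e. Aldh3a1, an aldehyde dehydrogenase, was the extreme at 4.51 RPKM in ESC, 0.482 and 0.371 in control iPSC 3 and 7, 1.13 and 1.001 in PC iPSC 5 and 13, and 728 in MEF. In all, 32 members were higher in MEF than in the highest iPSC line, against 37.9% of the 11992 genes. Besides Aldh3a1, the 10 highest in MEF were Bhlhe40, Rab3il1, Cd68, Egln3, Jun, Aldoc, Ldhb, Emb and Fgfr2. With 1 library on each side, the ESC and MEF levels have no replicate check.

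**Figure D3:**
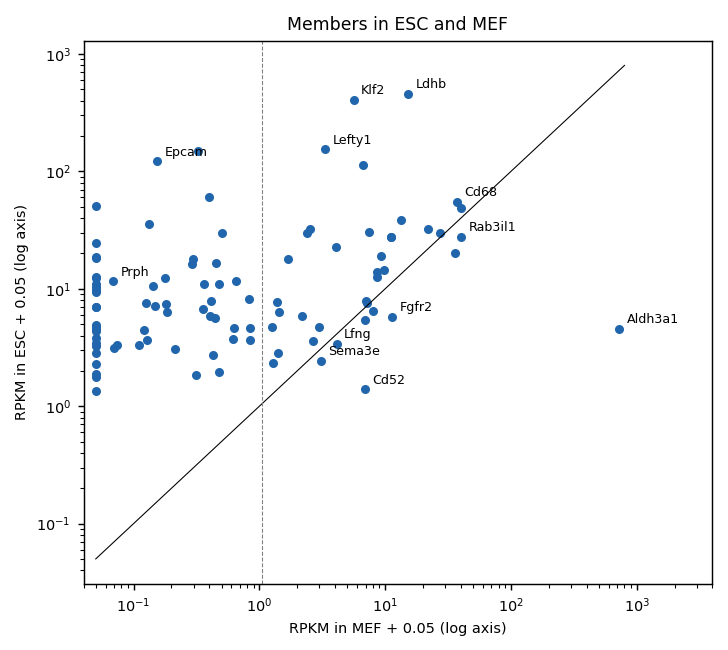
Level of the 100 members in ESC against MEF, in RPKM plus 0.05 on log axes, with equal levels on the diagonal and 1 RPKM in MEF at the dashed line. The 25 members without a read in MEF stand at the left edge, and 9 lie below the diagonal, Aldh3a1 farthest at 728 RPKM in MEF.

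The median range of a member over the 4 iPSC lines was 0.64 on the scale of log2(RPKM + 0.5), beside 0.33 for the 11992 genes at 1 RPKM or more in ESC. These values are not a test, since the rule used the iPSC levels and the members had few reads there, with a median of 72 to 107 per line. PC iPSC 5 was the highest line for 62 members and PC iPSC 13 was the lowest for 42. Among the 11992 genes those shares were 38.4% and 22.1%. Chromosome 11, which holds 11 members, adds to this count, since PC iPSC 5 was highest for 8 of the 11. It was highest for 4610 of the 11992 genes, and for 3697 of the 10957 that are not on chromosome 11. PC iPSC 5 was thus highest for most of the chromosome 11 genes among them, and the 8 of 11 are not particular to the members. Without that chromosome PC iPSC 5 was highest for 60.7% of the 89 remaining members, against 33.7% of 10957 genes. On library sizes scaled by TMM it was highest for 55 members. The rule takes the highest line of each gene, so a line that is often highest also sets the ratio of many members. The median member lay 0.21 above its own 4-line mean in PC iPSC 5 and 0.14 below it in PC iPSC 13 (log2), while both control lines lay within 0.07. The 2 PC lines therefore stood on opposite sides of the control lines.

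**Figure D4:**
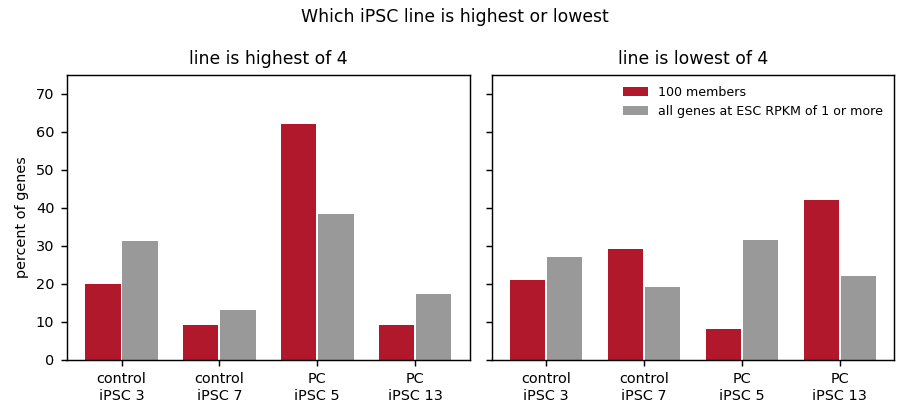
Percent of the 100 members (red) and of the 11992 genes at 1 RPKM or more in ESC (grey) for which each iPSC line is the highest (left) or the lowest (right) of the 4. PC iPSC 5 is highest for 62 of the members and PC iPSC 13 is lowest for 42.

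PC and control iPSC were compared with edgeR's quasi-likelihood test over all 16435 genes that passed its expression filter, since the rule ranks each gene by the highest of the 4 lines without regard to group. Of the 100 members, 99 were tested (1810063I02Rik was too low). None was called at an adjusted p of 0.05, as none of all genes was (0%), and the smallest adjusted p was 0.963 in edgeR. DESeq2 also called 0 members and 0% of all genes. An unadjusted p under 0.05 was reached by 10 members in edgeR (10.1%), 6 higher and 4 lower in PC, against 2.34% of all tested genes, and by 7 in DESeq2, against 1.51%. Both PC lines lay above both control lines for 18 members (18.2%, against 16.2% of all tested genes) and below them for 10 (10.1%, against 15.2%), which are shares near those of all genes. The median PC minus control difference of the members was 0.14 (log2), with 63 positive, against 0.00 for all genes. The sign of that median turned when PC iPSC 5 was left out, at -0.21. A p above the threshold does not show that the groups were equal.

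The members of smallest unadjusted p, none of which passed after adjustment, were in order Aldh3a1, 3830417A13Rik, Fgg, 4930461G14Rik, Krt42, Rsad2 and Mt4. The 2 known by predicted names, 3830417A13Rik and 4930461G14Rik, were higher in PC by 1.60 ± 0.55 and 0.68 ± 0.25 (log2, SE). Aldh3a1 had a log2 difference of 1.29 ± 0.22 (SE), with 0.426 ± 0.0783 RPKM in control and 1.06 ± 0.0889 in PC iPSC (SD, n = 2 each). Beside its very high level in MEF, the fibroblast sum was 2067 and 3847 RPKM in control iPSC 3 and 7 and 4107 and 3450.2 in PC iPSC 5 and 13, and the part of fibroblast RNA was not tested. Rsad2 had 1.34 ± 0.51. Fgg and Krt42 were lower in PC, by -1.71 ± 0.62 and -1.10 ± 0.42. Mt4 had 4 and 2 reads in control iPSC 3 and 7 and 0 in both PC lines, so no fold is given. Without control iPSC 7, which leaves control iPSC 3 alone and assumes that it varies like the other lines, 5 of the 99 members were called (5.05%), against 309 of all tested genes (1.89%). Rsad2 (2.54), Ddx60 (1.56), Gbp7 (1.55) and Atp10a (1.11) were higher and Nnt (-2.95) was lower in PC. At the first 4 of these control iPSC 3 was the lowest of the 4 lines and at Nnt the highest, and the Nnt difference was 2.04 without control iPSC 3.

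Positions were available for all 100 members. Chromosome 11 held 11 of them, where 8.0% of placed genes lie. In 10 places a member started within 500 kb of another. For 5 of these pairs no other gene of the table lay between: Krt17 and Krt42, Kirrel2 and Nphs1, Mt4 and Mt3, 0610040F04Rik and Bhlhe40, and Mid1 and G530011O06Rik. Kirrel2 and Nphs1 encode interacting adhesion proteins of the kidney's slit diaphragm and start 10.4 kb apart, and stood at 4.54 RPKM in ESC and 0.761 to 0.905 in the 4 iPSC lines and 6.98 RPKM in ESC and 1.1 to 2.002 in the 4 iPSC lines. 0610040F04Rik overlaps the start of Bhlhe40, so their reads cannot be told apart without strand. Further pairs, with 3 to 27 genes between, were Gli1 and Ndufa4l2, Fam183b and Hist3h2ba, Cd68 and Cldn7, and Nnt and Gm7120. Between Cd68 and Cldn7, 11 of the 19 genes at 1 RPKM or more in ESC lay above all 4 iPSC lines, a state found in 32.9% of such genes across the table, and between Fam183b and Hist3h2ba 0 of 3 did.

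Promoter windows of 300 bases were matched for 78 members in RefSeq's GRCm38.p6 table. An observed to expected CpG ratio of 0.6 or more, a usual mark of CpG-rich promoters, was found in 28 of them (35.9%), against 57.4% of the 15092 promoters of table genes. The median window held 11 CpG among members and 17 among all. Windows poor in CpG were commonest in the interferon and immune group, with a median of 5 CpG over 12 promoters (Il17f has 4), and windows rich in CpG in the transcription group, with a median of 20 over 9. The TATA letters TATAAA, on either strand, lay in 13 member windows (16.7%, against 9.5% of all), of which 6 were in the immune group. The hypoxia-response core ACGTG lay in 25.6% of member windows and 23.2% of all, and in 4 of the 6 matched hypoxia and sugar-use members. The metal-response core TGCNCNC lay in 59.0% and 57.8%, and the grainyhead letters AACCNGTT in 2.6% and 2.0%. The octamer letters ATGCAAAT lay in 2.6% and 1.5%. Apart from CpG content and TATA, the shares were close to those of all promoters, and no letters shared by the members as a set were found among the 6 searched.

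**Figure D5:**
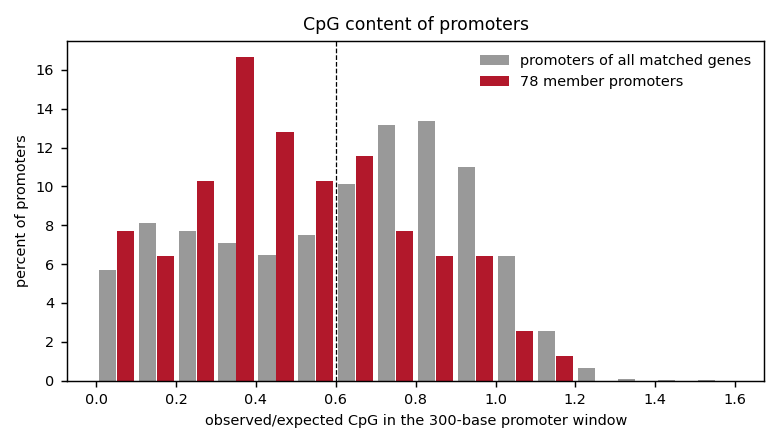
Observed to expected CpG in the 300-base promoter window, as percent of promoters per bin, for 78 members (red) and 15092 promoters of table genes (grey), with 0.6 at the dashed line. At or above the line stand 35.9% of the member promoters and 57.4% of all.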

How the data were processed

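RNA was sequenced from 1 ESC, 1 MEF, 2 control iPSC and 2 PC iPSC libraries, made with an mRNA kit from total RNA per the labels' protocols. The deposited series table holds whole-number read counts per gene, which per the file headers are uniquely assigned reads, and RPKM values that the authors computed from count, gene length and library total. Recomputing gave the deposited RPKM except for 17 to 28 genes per library scaled by another length, among them 1 member in 1 library (0610040F04Rik in PC iPSC 13). Per the submitters' processing notes, CASAVA 1.8.2 and the mm10 build were used in some role. The aligner, counter, annotation and use of strand were not found in these sources. Even numbers made up 62.4% to 67.5% of the counts from 1 to 20, against 48.8% to 50.6% of larger ones, so intervals on few reads may be too narrow.

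A dash in the table was read as 0. Genes were placed by gene ID in RefSeq's GRCm38.p6 annotation, and promoters were taken from RefSeq's most upstream start of each gene. Counts were tested with edgeR 4.0.16 (TMM scaling, expression filter, 4 group means over 6 libraries, quasi-likelihood test, Benjamini-Hochberg adjusted p under 0.05). The same steps were also run on simulated counts whose spread was set in advance and not taken from these libraries. The SE given with an edgeR log2 difference is the size of that difference divided by the square root of the test's F value. For ESC and MEF, with 1 library each, the spread of the iPSC lines stood in. Separate cultures are not stated for the libraries, and a p-value here reflects the spread among these libraries alone, which may be technical. DESeq2 1.42.0, limma 3.58.1, other scalings, filters and constants, and leaving out each iPSC line were the alternatives. The members, gene lists and groups were chosen with earlier results of these data known, and the function groups and the hypoxia, Hedgehog, Notch, interferon and wider macrophage lists after the members' values were seen. Genes were named by rank: the 20 highest ratios, 10 highest in ESC, 10 in MEF and 5 in iPSC, the 5 smallest p-values, neighbours within 500 kb, the 5 on each side of the threshold and members of a list with other genes of it. Predicted gene names were passed over unless near the threshold. The other genes of every list were read in the same ESC and iPSC libraries that chose the members, so no list is an independent check. Members named beyond this, as examples of a function group or for a line standing apart, were chosen after their values were seen. Values of 1 member and of 1 other list gene are not reported here.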

Additional observations from a re-analysis of the deposited data

Results flagged for a closer look

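At 7 of the 100 members, 1 iPSC line stood apart from the other 3, judged by its gap to the nearest line as a share of the range over the 4 lines on the scale of log2(RPKM + 0.5). A share above Dixon's critical value for 4 samples was taken as apart, a cut set to pass about 1 of 20 groups by chance. That rate is no yardstick for the 7, since the rule used these iPSC levels and some members had very few reads. Only the 100 members were examined, without a share for all genes, so no conclusion is drawn from the count. PC iPSC 5 was the high line at Il17f (share 0.978, 0.888 RPKM against 0.246 to 0.256), Ubd (0.896, 16.8 against 10.2 to 10.7), Crmp1 (0.893, 1.79 against 1.09 to 1.16) and Wnt7b (0.863, 1.20 against 0.301 to 0.388). Control iPSC 3 was the high line at Nnt (0.846, 0.473 RPKM against 0.014 to 0.067). At Cd52 (0.961, control iPSC 3) and 1810063I02Rik (0.964, PC iPSC 5) the line apart was the low one, at 0 reads, and the other 3 lines had no more than 2 reads, so these are differences of very few reads.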

How the results depend on the processing

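The count of members called between PC and control iPSC stayed at 0 with DESeq2, limma, other size factors, no filter, only the iPSC libraries and without chromosome 11, and ranged from 0 to 5 when a line was left out, the 5 coming without control iPSC 7. The Nnt difference ranged from -2.95 without control iPSC 7 to 2.04 without control iPSC 3, so its sign rests on that line. Allowing up to 2 reads in each iPSC line, 2 members counted as unread, against 0. Of the 100 members, 71 stayed in the top 100 with a constant of 0.1 RPKM, 86 with 1, 78 with the mean of the 4 lines, 97 with TMM-scaled RPKM, 75 with CPM and 99 after the expression filter; leaving out a line kept 67 (without PC iPSC 5) to 98. Members at or above the MEF threshold numbered 45 at 0.5 RPKM and 33 at 2 RPKM, against 39. Of the ESC counts, 5 members rest on fewer than 50 reads. No paired analysis was possible because the control and PC lines share no replicate numbers. Of the alternatives for whole-set values, 29 stayed near the main value and 2 moved. Near is a loose measure here, since keeping 67 of the 100 members passed as near. The 2 that moved were the calls without control iPSC 7 and the members with at most 2 reads. For single genes, 80 alternatives kept direction and side of the threshold, and 1 reversed, Nnt without control iPSC 3. The rest passed the threshold only without control iPSC 7, which leaves control iPSC 3 alone.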
